A study of Mus musculus with 24 samples.

Results

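Interferon beta (Ifnb1), the chains of its receptor (Ifnar1 and Ifnar2) and the interferon regulatory factors Irf1, Irf2, Irf3, Irf4, Irf5, Irf7 and Irf8 were followed in mouse macrophages and B cells. A gene was taken where a probe of the arrays carried its symbol, which gave 10 genes of the 21597 symbols on the arrays and 14 probes of 41174. All 10 genes passed the filter on dim probes, which left 17326 genes for testing, and Ifnb1 passed it through the KLA treated macrophages alone. The study measured mRNA in macrophages before and after activation of TLR4, the receptor for bacterial lipopolysaccharide, by Kdo2 lipid A (KLA), a defined TLR4 agonist. Total RNA was hybridised to 12 arrays with 2 dyes, and both channels of an array, Cy5 and Cy3, held biological replicates of the same condition.

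Cells came from C57BL/6 mice and no group carried an introduced allele or deletion. Elicited peritoneal macrophages (EPM) were lavaged after injection of thioglycollate and cultured overnight before use, bone marrow-derived macrophages (BMDM) were grown from marrow in medium conditioned by L cells, a source of M-CSF, and resting splenic B cells were the cells left after depletion of those bearing CD43 or CD11b. In each cell type there were 4 conditions of 2 samples. These were an early control, KLA for 1 h, the solvent DMSO for 12 h and KLA for 12 h. The early control was untreated for EPM and B cells and was DMSO for 1 h for BMDM, so that the 1 h comparison in EPM and B cells also holds any effect of the solvent. As both replicates of a condition shared an array, p-values measure only the spread between the channels of single arrays, and array and condition cannot be told apart. Each cell type was on a slide of its own, so that cell type cannot be told apart from slide.

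Type I interferons are secreted cytokines of antiviral and antibacterial defence. In macrophages, TLR4 signals through the adaptor TRIF (Ticam1) to kinases that activate IRF3, which, with NF-kB and AP-1 family factors, turns on Ifnb1. Secreted interferon beta acts on the receptor IFNAR1/IFNAR2 of the same and of neighbouring cells, and signals from the receptor then induce interferon-stimulated genes, Irf7 among them. IRF4 and IRF8 are lineage factors of myeloid cells and B cells that pair with other factors on composite DNA elements.

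The promoters of Ifnb1, Irf1, Irf2 and Irf7 are shown because these genes made up the early, the lasting and the late changes described here. They were taken from RefSeq (GRCm38.p6), 250 bases before to 50 after the start site, and all 10 genes matched, with 2 start sites each for Irf1 and Irf8, of which the first is printed for Irf1. Capitals mark matches on either strand to TATAAA, to the NF-kB consensus (given by name), to the IRF element AANNGAAA, to the interferon-stimulated response element (ISRE), here 2 copies of GAAA separated by 2 bases, which can overlap the IRF element, and to the STAT element (GAS) TTCNNNGAA.
Ifnb1, chr4:88522745-88523044, minus strand: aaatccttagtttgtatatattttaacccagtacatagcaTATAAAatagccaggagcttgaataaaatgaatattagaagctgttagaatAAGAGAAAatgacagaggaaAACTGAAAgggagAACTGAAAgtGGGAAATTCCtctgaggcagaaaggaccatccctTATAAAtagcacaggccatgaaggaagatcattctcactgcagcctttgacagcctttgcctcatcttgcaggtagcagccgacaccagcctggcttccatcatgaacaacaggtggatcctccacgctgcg
Irf1, chr11:53769764-53770063, plus strand: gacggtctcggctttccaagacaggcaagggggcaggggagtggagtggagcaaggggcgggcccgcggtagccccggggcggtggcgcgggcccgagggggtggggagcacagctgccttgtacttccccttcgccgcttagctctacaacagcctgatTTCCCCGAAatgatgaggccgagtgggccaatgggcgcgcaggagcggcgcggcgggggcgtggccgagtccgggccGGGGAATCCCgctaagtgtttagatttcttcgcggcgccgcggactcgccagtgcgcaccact
Irf2, chr8:46739495-46739794, plus strand: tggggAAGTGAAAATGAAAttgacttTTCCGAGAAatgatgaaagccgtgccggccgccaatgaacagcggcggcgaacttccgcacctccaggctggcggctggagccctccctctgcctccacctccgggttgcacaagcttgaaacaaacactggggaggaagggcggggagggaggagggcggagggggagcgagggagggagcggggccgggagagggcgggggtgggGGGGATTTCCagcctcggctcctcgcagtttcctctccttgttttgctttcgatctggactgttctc
Irf7, chr7:141266375-141266674, minus strand: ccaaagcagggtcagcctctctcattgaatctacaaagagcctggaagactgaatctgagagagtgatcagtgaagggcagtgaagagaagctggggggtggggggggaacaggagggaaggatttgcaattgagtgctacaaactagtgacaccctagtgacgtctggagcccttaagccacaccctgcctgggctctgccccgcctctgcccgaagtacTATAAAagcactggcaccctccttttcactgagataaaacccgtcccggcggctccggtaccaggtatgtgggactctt
The Ifnb1 promoter held 3 IRF elements, starting at -159, -139 and -126 from the start site, an NF-kB match at -116 and TATAAA at -210 and -82. In Irf1 an NF-kB match lay at -13, read on both strands of the same window, and a GAS at -90. The Irf2 promoter had overlapping IRF elements at -245 and -239, an ISRE at -241, a GAS at -224 and an NF-kB match at -17. TATAAA at -29 was the sole match in Irf7. Among the 10 genes TATAAA stood in 4, against 13.6% of all 32851 mouse promoters in the table, the NF-kB consensus in 3 (8.46%), the IRF element in 2 (23.9%), the ISRE in 1 (3.44%) and the GAS in 5 (8.3%). A match describes letters and does not show that a factor binds there.

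The labelled cell types carried their markers, with exceptions. All 10 macrophage markers were well above background in every EPM and BMDM channel, while 5 of them (Itgam, Msr1, Mrc1, Fcgr1 and Mertk) were so in no B cell channel. All 8 B cell markers were well above background in every B cell channel, and 5 of the 8 also in every EPM and every BMDM channel. Between 57.45% and 64.95% of probes were well above background per channel, and no spot of these genes was saturated. For B cells the labels conflicted: in the authors' table of normalized values, 4 of 24 columns, those of KLA 1 h and DMSO 12 h in B cells, matched the scanner values of each other's condition (r of at least 0.97) and not their own (r of at most -0.71), whereas the other 20 columns matched their own channel (r of at least 0.96). B cell changes of the 10 genes are therefore given as labelled and with these labels exchanged, and no EPM or BMDM value rests on them.

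KLA raised Ifnb1, Irf1 and Irf4 in both kinds of macrophage at 1 h and lowered Irf8. At 12 h Irf7 was among the most strongly raised of the 10 genes, Irf1 stayed high, Ifnb1 had come down from its early level, and Irf2, Irf5 and both receptor chains were moderately higher while Irf3 and Irf8 were lower. Past an adjusted p of 0.05 (limma, Benjamini-Hochberg over all genes tested), 5 of the 10 genes changed in EPM at 1 h, 4 higher and 1 lower, where 29.1% of all genes changed (9.39% higher and 19.7% lower). In BMDM at 1 h the count was 4, with 3 higher and 1 lower, against 28.6% of all genes (11% higher and 17.6% lower). At 12 h all 10 changed in EPM, 8 higher and 2 lower (53.9% of all genes, 19.6% higher and 34.3% lower), and 9 changed in BMDM, 7 higher and 2 lower (65% of all genes, 28.6% higher and 36.4% lower). The median change of the 10 genes was 0.22 and 0.11 at 1 h and 0.55 and 0.50 at 12 h in EPM and BMDM, on the log2 scale, with medians over all genes between -0.061 and -0.025. In each of these comparisons the share of the 10 genes that changed was above that of all genes. This describes the list only, since its genes were chosen with earlier results of these data known. Ifnb1, counted in each comparison, passed the filter through KLA treated macrophages alone. A second reading used the mean of each array and took both control arrays of a cell type as 1 control. Only the controls then gave a spread, and the control was no longer that of the same time. When only means over each array were used, with the spread taken between arrays, 2 genes remained past the threshold in EPM at 1 h (0.952% of all genes), 5 in EPM at 12 h (11.6%), 2 in BMDM at 1 h (0.571%) and 4 in BMDM at 12 h (21.1%).

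**Figure D1:**
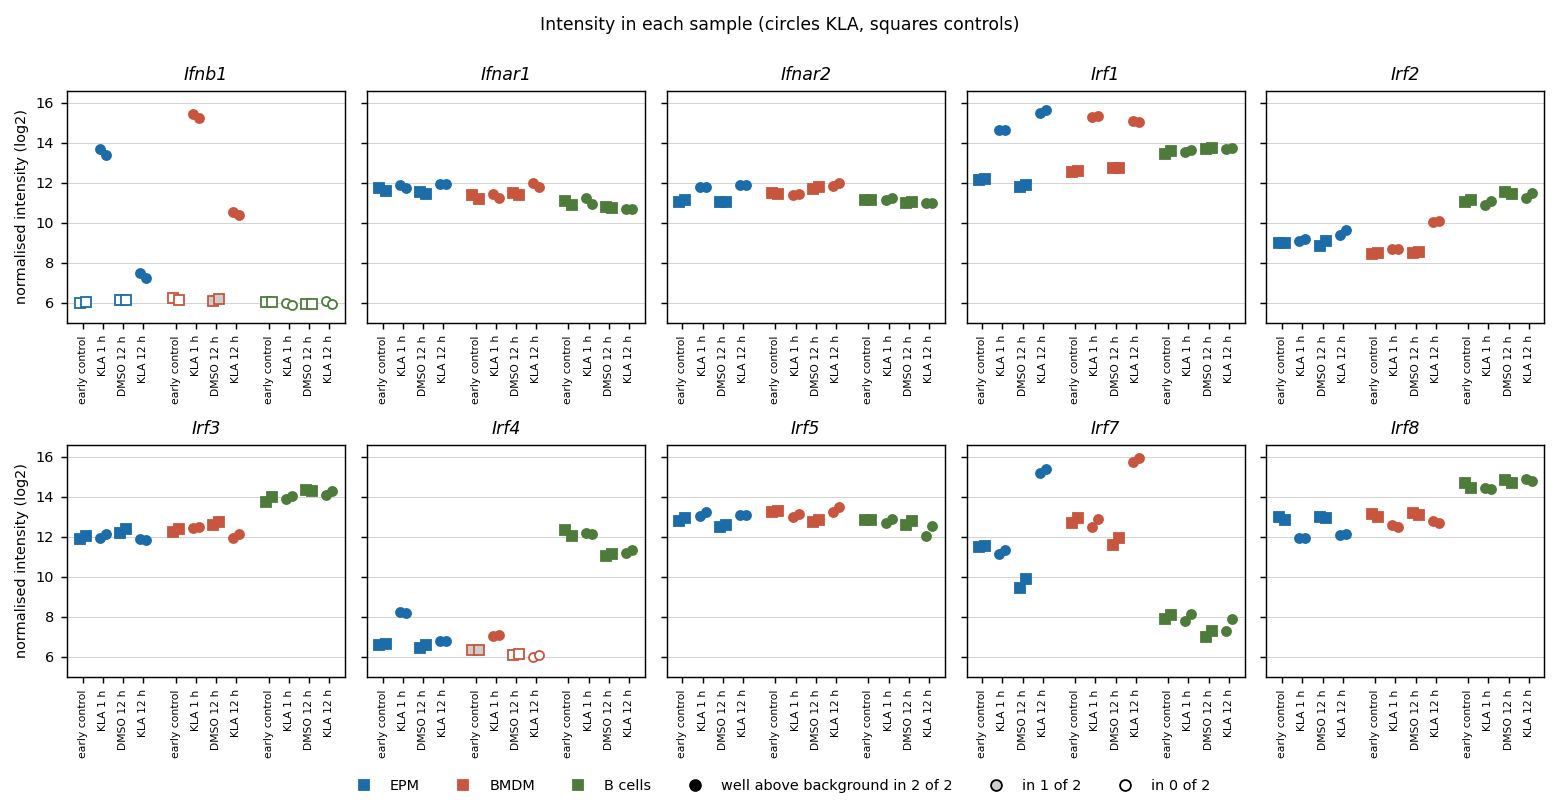
Normalised log2 intensity (y axis) of the 10 genes in each of the 24 samples, grouped by cell type and condition (x axis), with squares for controls and circles for KLA, filled where both replicates were well above background, grey where 1 of 2 was and open where neither was. Ifnb1 stood above its controls in KLA treated macrophages, highest at 1 h, Irf7 at 12 h, and Irf4 was highest in B cells.

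The ligand gene Ifnb1 (probe at chr4:87993350-87993409, mm8) was not well above background in any early control. In untreated EPM its normalised log2 intensity was 5.99 and 6.05, in neither sample well above background, and after 1 h of KLA it was 13.66 and 13.37. The treated pair lay far above the control pair. The difference was 7.50 ± 0.10 on the log2 scale (SE, 2 samples against 2), at least 181-fold (adjusted p = 3.24e-20). BMDM started from 6.23 and 6.12, again not well above background, and reached 15.44 and 15.23. This rise of 9.17 ± 0.10, at least 575-fold (adjusted p = 3.43e-21), was the largest of the 10 genes in any comparison with KLA.

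After 12 h most of the Ifnb1 signal was gone from EPM. Levels were 6.13 and 6.12 with DMSO, not well above background, and 7.47 and 7.21 with KLA, a difference of 1.22 ± 0.10 or at least 2.32-fold (adjusted p = 3.73e-09). BMDM kept more of it, with 6.10 and 6.19 in DMSO, 1 of the 2 well above background, and 10.53 and 10.39 in KLA. There the difference was 4.32 ± 0.10, 19.95-fold (adjusted p = 3.01e-17). The response at 12 h was smaller than that at 1 h, with a difference (12 h minus 1 h) of -6.28 ± 0.14 in EPM (adjusted p = 7.71e-17) and -4.85 ± 0.14 in BMDM (adjusted p = 3.67e-15), where 43.7% and 54.4% of all genes changed their response. Over the 12 conditions the 4 KLA treated macrophage conditions were ordered BMDM 1 h, EPM 1 h, BMDM 12 h and EPM 12 h with no overlap of neighbouring pairs of samples, whereas most neighbours among the 8 remaining conditions overlapped. As controls were at background, sizes moved with the background correction: with the background-subtracted signal of the scanner software the 1 h rises came to 11.55 in EPM and 12.02 in BMDM.

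Of the receptor chains, Ifnar1, which binds the kinase TYK2, was well above background in all 24 samples and ranged narrowly, with condition means from 10.67 to 11.92. At 1 h it was 11.73 and 11.58 in untreated EPM against 11.86 and 11.72 with KLA, and the pairs overlapped (difference 0.14 ± 0.10, adjusted p = 0.335). At 12 h it was 0.44 ± 0.10 higher with KLA in EPM (adjusted p = 0.000882) and 0.43 ± 0.10 higher in BMDM (adjusted p = 0.00071). With array means these 12 h differences missed the threshold (adjusted p = 0.278 and 0.0892).

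Ifnar2, the chain with the higher affinity for the ligand, gave different readings from its 2 probes. By the probe with the higher mean over all samples (chr16:91294093-91294152, mm8), which stands for the gene here, EPM rose from 11.04 and 11.10 to 11.78 and 11.80 at 1 h, 0.72 ± 0.05 (adjusted p = 5.55e-09). The second probe (chr16:91282658-91282717, mm8), which was the brighter in EPM and far dimmer in B cells, read 12.05 and 11.97 untreated and 12.05 and 11.98 with KLA, a difference of 0.01 (adjusted p = 0.973). Which of them reflects the transcript was not tested. At 12 h the probes gave 0.86 and 0.85 in EPM, both past the threshold. In BMDM no difference passed the threshold at 1 h (-0.06, adjusted p = 0.413), and at 12 h levels of 11.68 and 11.76 with DMSO stood against 11.85 and 11.96 with KLA. That difference of 0.18 ± 0.05 (adjusted p = 0.00539) was lost without the first DMSO sample (0.14, adjusted p = 0.0667) or the second KLA sample (0.13, adjusted p = 0.0896). The second probe gave a larger difference there, 0.46 (adjusted p = 0.000192).

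Irf1, an activator of interferon and antigen presentation genes, rose early and stayed high. In EPM it went from 12.15 and 12.17 to 14.65 and 14.64 at 1 h, 2.49 ± 0.07 or 5.61-fold (adjusted p = 1.28e-15). At 12 h it stood at 11.76 and 11.88 with DMSO and 15.48 and 15.61 with KLA, 3.73 ± 0.07 or 13.2-fold (adjusted p = 7.83e-19). In BMDM the early rise, from 12.55 and 12.57 to 15.28 and 15.31, was 2.74 ± 0.07 (adjusted p = 3.59e-16). The samples of a macrophage condition lay close together and far inside these differences. The BMDM difference at 12 h, from 12.74 and 12.72 to 15.07 and 15.02, was 2.31 ± 0.07 (adjusted p = 8.1e-16). The response therefore grew with time in EPM, by 1.24 ± 0.09 (adjusted p = 3.05e-09), and shrank in BMDM, where the 12 h response minus the 1 h response was -0.43 ± 0.09 (adjusted p = 0.000682). A second, dimmer Irf1 probe gave 2.29 and 3.46 in EPM and 2.70 and 2.40 in BMDM, and by it the smaller late response of BMDM missed the threshold (-0.30, adjusted p = 0.219).

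Irf2, which binds the same DNA elements as Irf1 and is known mainly as its repressor, responded late. It read 8.85 and 9.07 with DMSO and 9.38 and 9.63 with KLA at 12 h in EPM, 0.54 ± 0.09 (adjusted p = 6.23e-05). In BMDM it went from 8.47 and 8.52 to 10.02 and 10.10, 1.57 ± 0.09 or 2.96-fold (adjusted p = 3.34e-11). Neither pair overlapped. At 1 h the differences were 0.16 in EPM and 0.21 in BMDM (adjusted p = 0.214 and 0.103), and with the dye as replicate block that of BMDM passed (adjusted p = 0.0157).

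Irf3 and Irf7 encode the factors that are activated by phosphorylation and drive type I interferon genes, IRF3 in the first and IRF7 in the later phase. Irf3 mRNA was 12.21 and 12.40 with DMSO and 11.89 and 11.85 with KLA at 12 h in EPM, a change of -0.43 ± 0.11 (adjusted p = 0.00192). In BMDM 12.56 and 12.73 stood against 11.93 and 12.12, a change of -0.62 ± 0.11 (adjusted p = 4.34e-05). The DMSO 12 h controls were 0.33 and 0.35 above the early controls in EPM and BMDM, and against the early control the changes were -0.10 (adjusted p = 0.452) and -0.27 (adjusted p = 0.0322). With the scanner software's signal both 12 h changes missed the threshold (-0.32 and -0.22, adjusted p = 0.0778 and 0.192). At 1 h neither cell type passed the threshold (0.07 and 0.17, adjusted p = 0.703 and 0.254). A second Irf3 probe, designed on another transcript record and placed at chr7:44866049-44866108 (mm8), was 7.74 and 7.84 in untreated EPM and 7.21 and 7.26 after 1 h of KLA, a change of -0.56 ± 0.08 (adjusted p = 1.63e-05). The probes thus differed at 1 h, and the mean of both gave -0.25 (adjusted p = 0.0202). With the dye as block the 1 h change of BMDM by the main probe passed (adjusted p = 0.0352). By the second probe, without the block, BMDM at 1 h changed the other way (-0.26, adjusted p = 0.0172).

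For Irf7 the early and late readings were far apart. At 1 h EPM had 11.46 and 11.53 untreated and 11.13 and 11.35 with KLA, a difference of -0.26 ± 0.20 that missed the threshold (adjusted p = 0.378) but passed it with the dye as block (adjusted p = 0.0143). At 12 h 9.41 and 9.88 with DMSO stood against 15.17 and 15.41 with KLA, 5.64 ± 0.20 or 50-fold (adjusted p = 2.28e-14). BMDM read 12.70 and 12.92 at 1 h with DMSO, 12.51 and 12.90 with KLA, 11.61 and 11.92 at 12 h with DMSO and 15.72 and 15.96 with KLA. Its pairs overlapped at 1 h (-0.11, adjusted p = 0.755) and were well separated at 12 h (4.08 ± 0.20, 16.9-fold, adjusted p = 2.01e-12). The controls moved too, as DMSO 12 h differed from the early control by -1.85 in EPM (adjusted p = 2.16e-06, 19.1% of all genes past the threshold) and by -1.05 in BMDM (adjusted p = 0.000743, 23.2% of all genes). Against the early control, a comparison chosen after the data were seen, KLA 12 h was 3.79 higher in EPM and 3.03 higher in BMDM. The Irf7 probe aligned in pieces over 351 bases (chr7:141116085-141116435, mm8).

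Irf4, a factor of B cell and plasma cell development that is also induced in alternatively activated macrophages, was dim in macrophages. Untreated EPM gave 6.58 and 6.61, and KLA 1 h gave 8.21 and 8.19, a rise of 1.60 ± 0.08 or 3.04-fold (adjusted p = 4.54e-11). BMDM gave 6.31 in both DMSO samples, 1 of them well above background, and 7.03 and 7.10 after KLA, 0.75 ± 0.08 (adjusted p = 1.7e-06). The pairs did not overlap in either cell type. At 12 h EPM differed by 0.27 ± 0.08 (adjusted p = 0.0118), which was lost without the first DMSO sample (0.20, adjusted p = 0.117) or the first KLA sample (0.26, adjusted p = 0.0552), and in BMDM Irf4 was not well above background with either treatment. With array means the 1 h rises were 1.65 in EPM and 0.85 in BMDM, and both missed the threshold. With the scanner software's signal the 1 h rises were 2.68 in EPM and 2.37 in BMDM. The summed level of the 3 plasma cell markers, which include Prdm1, was 13.0 to 13.1 in both EPM groups at 1 h. Another of the 3, Igj, was well above background in no EPM channel. In BMDM the sum was 9.87 to 9.90 with DMSO and 10.8 to 10.9 with KLA, and its part in the Irf4 change was not tested.

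Irf8, required for monocyte and dendritic cell development and for B cell identity, fell with KLA. In EPM 13.00 and 12.82 became 11.93 and 11.93 at 1 h, a change of -0.98 ± 0.08 (adjusted p = 4.14e-08). At 12 h 12.97 and 12.92 with DMSO stood against 12.07 and 12.12 with KLA, -0.85 ± 0.08 (adjusted p = 6.95e-08). Both treated pairs lay below their controls, and the second Irf8 probe gave -1.10 and -0.70. In bulk RNA fewer cells of a type and less RNA per cell cannot be told apart. The summed level of the 3 conventional dendritic cell markers on the arrays, all well above background in every EPM sample, was 13.1 to 13.2 in both EPM groups at 1 h, and at 12 h it was 13.6 to 13.8 with DMSO and 12.1 with KLA. Its part in the Irf8 changes was not tested. BMDM went from 13.14 and 12.99 to 12.58 and 12.49 at 1 h (-0.53 ± 0.08, adjusted p = 9.2e-05) and from 13.19 and 13.10 to 12.80 and 12.71 at 12 h (-0.39 ± 0.08, adjusted p = 0.000481). The latter depended on the reading, as the second probe gave 0.09 (adjusted p = 0.413) and the scanner software's signal 0.03 (adjusted p = 0.773).

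Irf5, a mediator of inflammatory cytokine induction downstream of Toll-like receptors, was bright in all 24 samples and changed little. At 12 h 12.48 and 12.57 with DMSO stood against 13.07 and 13.10 with KLA in EPM, 0.56 ± 0.13 (adjusted p = 0.00105). In BMDM 12.75 and 12.86 stood against 13.22 and 13.50, 0.56 ± 0.13 (adjusted p = 0.000771). Samples did not overlap at 12 h, yet against the early control the KLA 12 h differences were 0.21 and 0.09 (adjusted p = 0.167 and 0.548). At 1 h the differences were 0.28 in EPM and -0.19 in BMDM (adjusted p = 0.119 and 0.291), and that of EPM passed with the dye as block (adjusted p = 0.00871).

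**Figure D2:**
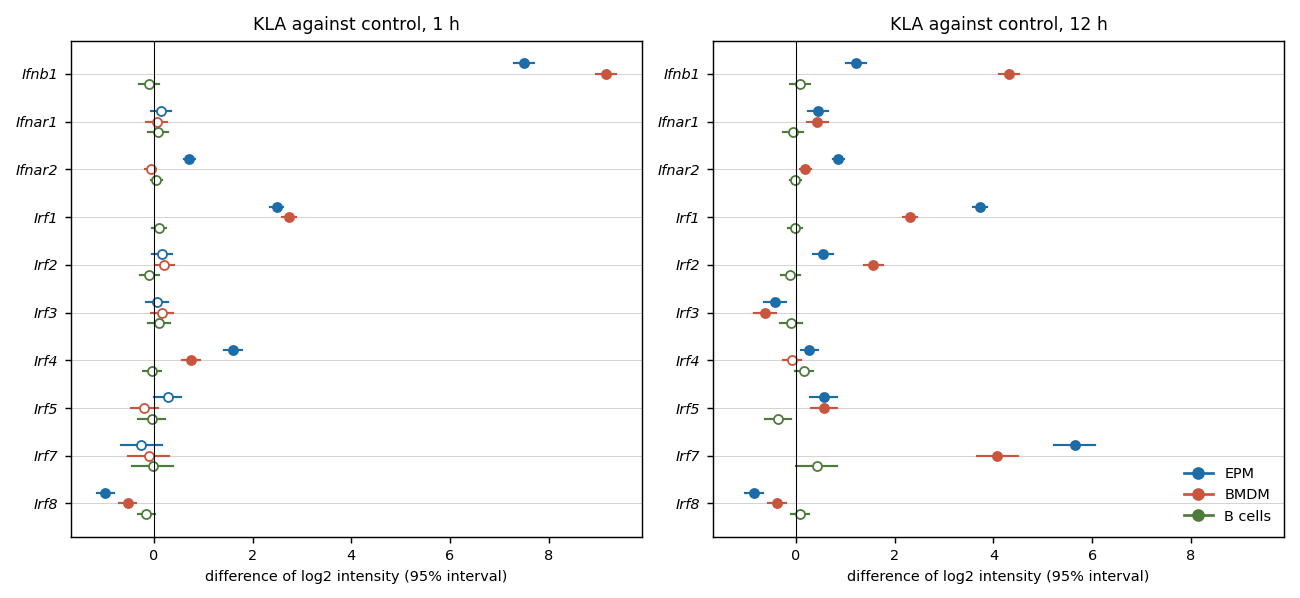
Difference of log2 intensity between KLA and the control of the same time (x axis) for each of the 10 genes (y axis) at 1 h and 12 h, by cell type, as points with 95% intervals of the limma fit, filled where the adjusted p was under 0.05. Ifnb1 reached 7.50 in EPM and 9.17 in BMDM at 1 h, Irf7 reached 5.64 and 4.08 at 12 h, and no B cell point was filled.

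The KLA responses of EPM and BMDM were compared in the model as the difference between them. In this difference cell type cannot be told apart from slide. At 1 h it also holds any effect of the solvent, as the control was untreated for EPM and DMSO for BMDM. At 1 h this difference passed the threshold for 4 of the 10 genes, 2 larger and 2 smaller in BMDM, where 9.58% of all genes did (5.5% larger and 4.07% smaller). The Ifnb1 rise was 1.67 ± 0.14 larger in BMDM (adjusted p = 1.1e-07), although with the scanner software's signal the difference was 0.47 (adjusted p = 0.751) and with array means 1.74 (adjusted p = 0.165). The Irf4 rise was smaller in BMDM (difference -0.85 ± 0.12, adjusted p = 7.37e-05; -0.31 with the scanner software's signal, adjusted p = 0.32), and the Ifnar2 response was -0.78 relative to EPM, a call lost by the second probe (-0.22, adjusted p = 0.349). Irf8 fell less in BMDM (0.45 ± 0.12, adjusted p = 0.0183), a call lost on leaving out any of 4 single samples (0.37 to 0.45, adjusted p from 0.059 to 0.11). With the dye as block, Irf1 (0.26, adjusted p = 0.0301) and Irf5 (-0.47, adjusted p = 0.00557) also passed.

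At 12 h the difference passed for 7 of the 10 genes, 3 larger and 4 smaller in BMDM, against 47.8% of all genes (24.6% larger and 23.2% smaller). Ifnb1 was held higher in BMDM by 3.103 ± 0.14 (adjusted p = 3.58e-12) and Irf2 by 1.02 ± 0.13 (adjusted p = 4.08e-06). The rises of Irf7 (-1.57 ± 0.28, adjusted p = 0.000158), Irf1 (-1.41 ± 0.09, adjusted p = 7e-10) and Ifnar2 (-0.67 ± 0.07, adjusted p = 6.76e-07) were smaller in BMDM than in EPM. For Irf7 the level with KLA at 12 h was nevertheless higher in BMDM (15.84) than in EPM (15.29). So was that with DMSO at 12 h (11.76 and 9.64). Against the early controls the Irf7 rises were 3.03 in BMDM and 3.79 in EPM. Irf4 (-0.35, adjusted p = 0.0224), lost without any of 4 single samples, and Irf8 (0.46, adjusted p = 0.00346) were nearer to the threshold. With array means the 12 h differences were 3.03 for Ifnb1, -1.17 for Irf7, -1.16 for Irf1 and 1.05 for Irf2, and most calls were lost. Each KLA condition was then a single array, so the lost calls say little about these genes. Neutrophil markers, 6 of 7 of which were on the arrays, had a summed level of 13.2 to 14.6 in BMDM and 9.89 to 10.9 in EPM. Conventional dendritic cell markers summed to 12.1 to 13.8 in EPM and 9.10 to 9.65 in BMDM. For plasma cell markers these levels were 13.0 to 13.6 and 9.87 to 11.2, and for B cell markers 15.9 to 16.1 and 14.3 to 14.8. Of the 3 plasma cell markers, Igj was well above background in no EPM channel. Prdm1, another of them, was among the genes most alike Ifnb1 over the 12 condition means (r = 0.96). The plasma cell sum was 11.4 to 11.8 in B cells, where all 3 were well above background. The part of such levels in the response differences was not tested.

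**Figure D3:**
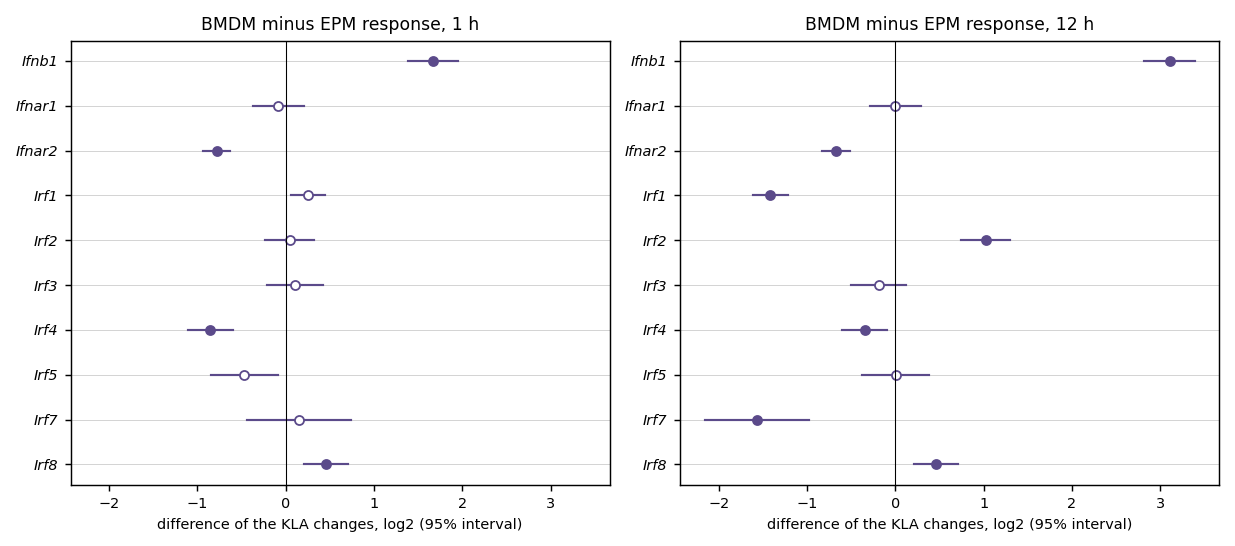
KLA response of BMDM minus KLA response of EPM (x axis, log2, with 95% intervals) for each of the 10 genes (y axis) at 1 h and 12 h, filled where the adjusted p was under 0.05. Ifnb1 lies to the right at both times, at 1.67 and 3.103, and Irf1 and Irf7 lie to the left at 12 h, at -1.41 and -1.57.

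Under basal conditions, as given by the early controls, 8 of the 10 genes differed between BMDM and EPM, where 57.8% of all genes did. Irf7 differed most, with 12.70 and 12.92 in BMDM and 11.46 and 11.53 in EPM (1.32 ± 0.20 higher in BMDM, adjusted p = 1.5e-05). Irf5, Irf1, Ifnar2 and Irf3 were 0.33 to 0.40 higher in BMDM, although second probes gave 0.81 for Irf1, -0.21 for Ifnar2 (adjusted p = 0.0517) and 0.02 for Irf3 (adjusted p = 0.889), and Irf2, Ifnar1 and Irf4 were lower (-0.52, -0.39 and -0.28). Ifnb1 (0.16, adjusted p = 0.183) and Irf8 (0.15, adjusted p = 0.133) did not pass, whereas the second Irf8 probe did (0.53, adjusted p = 6.59e-05). As the early control held DMSO for BMDM alone, cell type, solvent and slide cannot be told apart here.

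Untreated B cells differed from untreated EPM in 7 of the 10 genes (77.2% of all genes) and from BMDM in 9 (76.6% of all genes). Irf4 stood out, at 12.35 and 12.04 in B cells, 5.60 ± 0.08 above EPM (48.4-fold, adjusted p = 1.26e-20). The Irf4 level of each B cell sample, whatever its label, was above that of all 16 macrophage samples. Irf2, Irf3, Irf8 and Irf1 were also higher in B cells than in EPM, by 2.10, 1.89, 1.64 and 1.34. In the opposite direction, Irf7 was 7.88 and 8.10 in untreated B cells, a difference of -3.51 ± 0.20 from EPM (adjusted p = 6.57e-12) and of -4.82 ± 0.20 from BMDM (adjusted p = 5.44e-14). Ifnar1 was -0.66 and -0.27 relative to EPM and BMDM, and Ifnar2 and Irf5 did not differ past the threshold from EPM. By the second Ifnar2 probe, however, B cells were at -2.14 relative to EPM (adjusted p = 5.49e-14) and -1.93 relative to BMDM (adjusted p = 3e-13).

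In B cells as labelled, none of the 10 genes passed the threshold at 1 h or at 12 h in limma, where 5.18% and 5.26% of all genes did. At an unadjusted p under 0.05 the counts were 0 and 1, the latter being Irf5 (12.57 and 12.77 with DMSO, 12.05 and 12.56 with KLA, -0.37 ± 0.13, adjusted p = 0.119). With the dye as block 2 of the 10 genes passed at 12 h, where 1929 of all 17326 genes did. They were Irf5 (adjusted p = 0.00402) and Irf7 (0.42, adjusted p = 0.00126). Without the second KLA sample the Irf5 change was -0.62. Ifnb1 was well above background in no B cell sample, with values between 5.90 and 6.07. Among the 95% intervals of the B cell changes, that of Irf7 at 12 h reached farthest from 0, to 0.84 on the log2 scale.

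With the labels of KLA 1 h and DMSO 12 h exchanged, 8 of the 10 genes passed at 1 h (47.4% of all genes) and 6 at 12 h (49.2% of all genes). The Irf4 change was then -1.11 at 1 h and -0.90 at 12 h (adjusted p = 3.96e-09 and 6.64e-08), and Irf7 changed by -0.84 at 1 h (adjusted p = 0.00176). Irf2 was 0.40 and 0.37 higher and Irf8 0.22 and 0.44 higher. Ifnb1 read -0.09 and 0.08 and passed at neither time (adjusted p = 0.458 and 0.561). By the samples, B cells labelled untreated and KLA 1 h were alike (Irf4 at 12.35, 12.04, 12.19 and 12.12) and those labelled DMSO 12 h and KLA 12 h were alike (11.02, 11.15, 11.17 and 11.33). The summed macrophage marker level followed the same division, at 10.2 to 10.3 in the first 4 samples and 11.3 to 11.6 in the other 4, and its part was not tested. Against the untreated samples, which with KLA 12 h are the B cell samples whose labels were not in conflict, KLA 12 h differed in 8 of the 10 genes (46.3% of all genes), a comparison that joins treatment and time and was chosen after the data were seen.

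**Figure D4:**
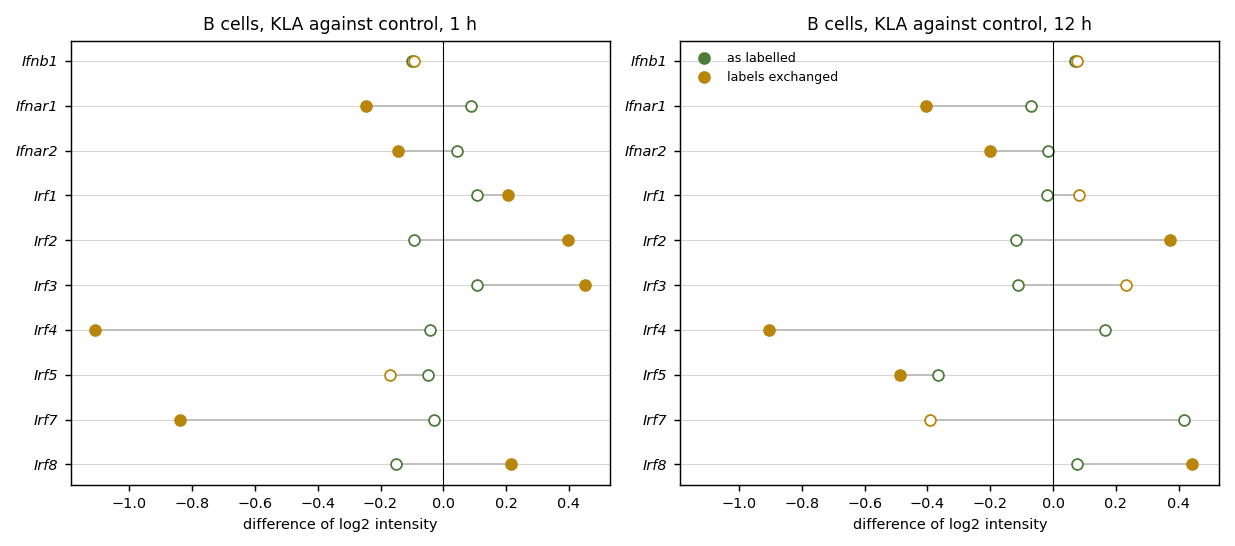
Difference of log2 intensity between KLA and control in B cells (x axis) for the 10 genes (y axis) at 1 h and 12 h, with the labels as given (green) and with KLA 1 h and DMSO 12 h exchanged (ochre), filled where the adjusted p was under 0.05. No green point is filled, 8 ochre points are filled at 1 h and 6 at 12 h, and Ifnb1 lies near 0 under both.

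The response of B cells differed from the mean response of both macrophage types in 5 of the 10 genes at 1 h (21.9% of all genes) and 9 at 12 h (55.8% of all genes). As B cells minus macrophages, the difference was -8.43 ± 0.12 for Ifnb1 at 1 h (adjusted p = 9.99e-19) and -2.70 at 12 h, -2.51 and -3.04 for Irf1, and -4.44 for Irf7 at 12 h. With exchanged labels these were -8.43, -2.69, -2.41, -2.94 and -5.25, and each passed the threshold as well. With array means, each KLA condition being a single array, the differences were -8.37 and -2.76 for Ifnb1 and -2.65 and -2.89 for Irf1. The Irf7 difference at 12 h was then -4.14, and its call was lost. In the main fit the Irf8 difference was 0.61 and 0.70, with a B cell change that missed the threshold as labelled (-0.15 and 0.08) beside the fall in macrophages. Directions for Irf2, Irf3 and Irf7 at 1 h and Irf4 at 12 h turned with the labels.

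Other genes of the pathway changed in macrophages too. Of all genes, 29.1% changed in EPM and 28.6% in BMDM at 1 h, and 53.9% and 65% at 12 h. Of 11 genes upstream of Ifnb1, 4 rose in EPM and 4 in BMDM at 1 h, among them Cd14, the lipopolysaccharide co-receptor (2.38 and 1.53), Tank, a scaffold of the IRF3 kinases (1.51 in EPM), and Ticam1, the adaptor TRIF (0.96 in BMDM), and 1 fell, Ripk1 in BMDM (-0.36). At 12 h 9 rose and 1 fell in EPM, the fall being Tlr4 itself (-0.76), and 8 rose and 1 fell in BMDM, led by Ikbke, a kinase of IRF3 (1.84), and Tank (1.38). Of the 7 partners of IRFs at the Ifnb1 enhancer, 2 rose in EPM and 3 in BMDM at 1 h, led by the NF-kB subunits Nfkb1 (1.17 and 0.91) and Rela (0.93 and 0.76), and none fell. At 12 h 3 rose in each, and Jun fell in EPM (-1.32). In EPM at 1 h and BMDM at 12 h the share of these 7 that changed was not above that of all genes. The median change of the 7 at 1 h was 0.11 in EPM and -0.16 in BMDM.

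At 1 h 29.1% of all genes changed in EPM and 28.6% in BMDM, and at 12 h 53.9% and 65%. Among the 9 genes of receptor signalling and feedback, 2 rose and 1 fell at 1 h in each macrophage type. Both rises were of feedback inhibitors, Socs3 (4.22 and 4.13) and Socs1 (1.07 and 0.86), and the falls were Stat2 in EPM (-0.41) and Ptpn6 in BMDM (-0.24). At 12 h 8 rose in EPM and 7 in BMDM, the highest being Usp18, a negative regulator at IFNAR2 (6.40 in EPM, 4.67 in BMDM), Socs3 in EPM (4.03) and Socs1 in BMDM (4.91). In B cells as labelled 2 of the 9 rose at 12 h, Usp18 (0.49) and Irf9 (0.39), where 5.26% of all genes changed. With labels exchanged 4 were higher and 2 lower (49.2% of all genes changed), with Usp18 at 0.70 and Irf9 at -0.12 (adjusted p = 0.252).

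Of all genes, 9.39% rose in EPM and 11% in BMDM at 1 h, and 19.6% and 28.6% at 12 h. The 15 interferon-stimulated targets rose in larger shares. At 1 h 11 were higher in EPM, led by the chemokine Cxcl10 (4.74) and the antiviral gene Ifit1 (4.27), and 12 in BMDM, led by Cxcl10 (7.32) and the chemokine Ccl5 (5.69), with Oas2 the sole fall (-0.25). At 12 h all 15 were higher in both. The leading genes were Ifit3 (8.84) and Cxcl10 (7.90) in EPM, and Ccl5 (8.16) and the GTPase Gbp2 (6.84) in BMDM. The median change of the list was 2.36 and 1.75 at 1 h and 6.77 and 4.99 at 12 h in EPM and BMDM, beside the medians over all genes given above. In B cells as labelled 5.18% of all genes changed at 1 h and 5.26% at 12 h. Of the 15 targets 1 rose at 1 h there, Mx1 (0.35). At 12 h 9 rose, led by Cxcl10 (at least 2.87-fold, the control being not well above background) and Oasl1 (1.42). With labels exchanged, 4 of the 15 were higher and 5 lower at 1 h (47.4% of all genes changed). At 12 h 9 were then higher and 3 lower (49.2% of all genes changed).

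Of the 14 other interferons and receptors, 11 were tested, and at 1 h 6 rose and 2 fell in BMDM, where 28.6% of all genes changed, with Ifna5 (1.15) and Ifna2 (0.84) the largest rises and Ifna11 (-0.44) and Ifngr2 (-0.20) the falls. In EPM, where 29.1% of all genes changed, 1 rose, Ifngr1 (0.53), and 1 fell, Ifngr2 (-0.37). Interferon alpha genes are near-identical, and their probes may share targets. Ifng, the type II interferon, was higher in EPM at 12 h, at least 6.16-fold, and Ifngr1, the ligand-binding chain of its receptor, was lower in EPM and BMDM (-1.24 and -1.68). Of the IRF partners Batf, which pairs with IRF4 and IRF8, rose at 12 h in EPM (1.60), BMDM (1.79) and B cells as labelled (1.04), and with labels exchanged its B cell difference was 2.04. Among the 5 partners tested 2 rose and 1 fell at 12 h in EPM (53.9% of all genes changed) and in BMDM (65%), the fall being Tcf3 (-0.83 and -0.34). In B cells 2 rose and none fell as labelled (5.26% of all genes), and 2 were higher and 2 lower with labels exchanged (49.2%).

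**Figure D5:**
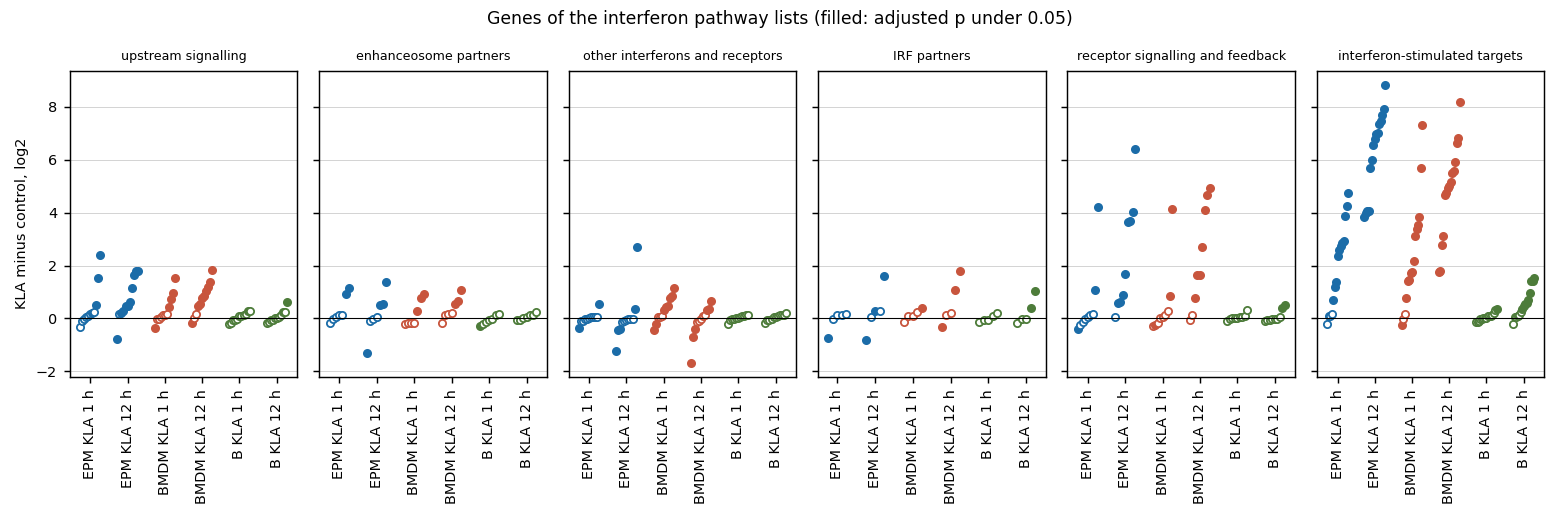
Difference of log2 intensity between KLA and control for the genes of each pathway list, by cell type and time, with each point a gene, filled where the adjusted p was under 0.05. The interferon-stimulated targets lie highest, with medians of 6.77 in EPM and 4.99 in BMDM at 12 h, and no B cell point exceeds 1.52.

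The genes most alike each member in their pattern over the 12 condition means, among 17325 compared, differed between members. These correlations are descriptions, since the conditions share slides and arrays. For Ifnb1 they were Ticam1 (Pearson r = 0.96), the repressor Prdm1 (0.96) and EG622976 (0.96), and for Irf1 they were Gbp5 (0.94), Traf1 (0.93) and 1700003O08Rik (0.92). Irf7 was closest to Parp12 (0.99), Oas3 (0.99) and D11Lgp2e (0.99). Irf4 was closest to Sfrs7, E2f4 and Zc3h11a (each 0.99), and Irf8 to Zfp784, Socs4 and Snrk (each 0.99), and both genes had their highest levels in B cells. Among the 10 genes themselves Irf3 and Irf8 were the most alike (0.96), and Ifnar1 and Irf3 the most opposed (-0.93).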

How the data were processed

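Gene expression was profiled on 12 Agilent 2-colour arrays with 24 channels, 2 biological replicates for each of 12 conditions, and samples were grouped from the labels. The study describes triplicates on Agilent or Illumina arrays, and 2 replicates per condition were analysed here. The authors deposited scanner files of Agilent Feature Extraction 9.5.3.1 with mean, local background and processed intensity per spot. They also deposited a value table of normalized intensity, linear, for 38516 probes, whose normalization is not given in the sources used here. The scanner flags deposited with each spot (values of 0 or 1) mark signals well above background. The 2 deposited files of each of the 12 arrays held identical values, and both channels were taken from them by their columns.

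Intensities were background corrected by normexp with an offset of 50, using all spots. After removal of control spots, arrays were normalized by loess within and by quantiles of the average intensity (Aquantile) between arrays, and each channel gave a log2 value. Outlier spots were set missing, spots of a probe were averaged, and the probe with the highest mean stood for a gene. Genes detected well above background in each replicate of 1 condition or more were fitted with limma 3.58.1 in R 4.3.3 (statmod 1.5.0, data.table version 1.17.8), with 1 coefficient per condition, 12 residual degrees of freedom and Benjamini-Hochberg adjustment over the 17326 genes. Intervals are at 95%. A fold against a group well above background in neither replicate is a lower bound, with each channel of that group set to the gene's own value or, if higher, its lowest signal still well above background (5.44 to 6.16, log2). The fit was tested on simulated data with independent noise in each channel. These held no array or dye effect, so the test does not bear on such effects in the arrays. Precision is limited by signal over background and by the few arrays.

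Conditions share the dye as a replicate name. Cy5 minus Cy3 correlated positively across genes in each of 66 pairs of arrays (0.27 to 0.63), so the dye was taken to pair the channels, and values with the dye as replicate block are given where they change a call. Array means as samples took both control arrays of a cell type as replicates of 1 control. Each KLA condition was then a single array, so the spread came only from the early and 12 h controls. The control was no longer that of the same time. Irf7 in EPM at 1 h read 0.67 by it, against -0.26 in the main fit. Further alternatives were another offset, the processed signal, 2 other normalizations between arrays, the authors' table, no filter, the mean of probes, separate fits, centring, a threshold of 0.01, exchanged B cell labels and leaving out each sample.

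The genes and pathway lists were chosen with earlier results of these data known, and 2 genes of the lists are not reported here. Besides the 10 genes, the text names per list at most the 2 largest rises and 2 largest falls past the threshold in a comparison, and for 5 genes the 3 most alike. Probe coordinates are on mm8, per the file headers, and the position of probes in exons or untranslated regions was not analysed here.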

Additional observations from a re-analysis of the deposited data

Results flagged for a closer look

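Differences between cell types in the response to KLA, tested as a difference of the 2 responses in limma at an adjusted p of 0.05, are collected here on the log2 scale. In them cell type cannot be told apart from slide, and those at 1 h also hold any effect of the solvent. BMDM minus EPM at 1 h gave Ifnb1 1.67, Ifnar2 -0.78, Irf4 -0.85 and Irf8 0.45. BMDM minus EPM at 12 h gave Ifnb1 3.103, Ifnar2 -0.67, Irf1 -1.41, Irf2 1.02, Irf4 -0.35, Irf7 -1.57 and Irf8 0.46. B cells minus the mean of both macrophage types at 1 h gave Ifnb1 -8.43, Ifnar2 -0.28, Irf1 -2.51, Irf4 -1.22 and Irf8 0.61. The same at 12 h gave Ifnb1 -2.70, Ifnar1 -0.50, Ifnar2 -0.53, Irf1 -3.04, Irf2 -1.17, Irf3 0.42, Irf5 -0.93, Irf7 -4.44 and Irf8 0.70. By the second Ifnar2 probe the 1 h differences were -0.22 and 0.08 and missed the threshold (adjusted p = 0.349 and 0.684). For B cells minus macrophages the Irf3 difference at 12 h was 0.08 with the scanner software's signal (adjusted p = 0.734). It passed the threshold in 21 of 24 alternative settings. The sign of the Irf1 difference between BMDM and EPM at 12 h is opposite to that of Ifnb1.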

How the results depend on the processing

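The 10 genes gave 100 tested differences (60 with KLA and 40 between responses). A difference was counted as kept if its call stayed the same and, where it passed the threshold, its direction too. Sign changes of differences that passed in neither reading were not counted against this. All 100 were kept with an offset of 16, with quantile normalization over channels and without a filter. The number kept was 99 without normalization between arrays or centred on the median change. It was 97 with the mean of probes, 96 at a threshold of 0.01 and 91 with the dye as replicate block (9 newly passing). It was 90 with the processed signal, 82 with the authors' table, and 58 of 60 with separate fits. With array means as samples 65 were kept and 35 lost the threshold. With exchanged B cell labels 22 of 40 were kept. Leaving out each sample kept 626 of 640. Sign changes that passed in neither reading numbered 2 with quantile normalization, 4 without normalization between arrays, 1 centred and 3 with the mean of probes. There were 11 with the processed signal, 11 with the authors' values, 22 with array means, 4 with exchanged labels and 43 on leaving out each sample.

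Reversed values are listed here only where either reading passed the threshold. They were Irf8 in BMDM at 12 h with the processed signal (0.0318) and Irf3 in EPM at 1 h with the mean of probes (-0.25). The authors' table, whose B cell columns conflict with the labels, reversed Irf2 in B cells (0.36 at 1 h, 0.29 at 12 h), Irf4 in B cells at 12 h (-0.97) and, for B cells minus macrophages, Irf7 at 1 h (-0.68) and Irf4 at 12 h (-1.24). Exchanged labels reversed, in B cells at 1 h, Ifnar1 (-0.25), Ifnar2 (-0.14), Irf2 (0.40) and Irf8 (0.22), at 12 h Irf2 (0.37) and Irf4 (-0.90), and for B cells minus macrophages Irf3 (0.33) and Irf7 (-0.66) at 1 h and Irf4 (-0.997) at 12 h. The early control in place of DMSO 12 h, added after the data were seen, reversed Irf1 (0.19), Irf2 (0.28), Irf3 (0.34) and Irf4 (-0.94) in B cells. The cause was not tested.

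Of the 10 genes, those passing in B cells at 12 h (0 as labelled) became 1 with the processed signal, 2 with the replicate block, 6 with the authors' table or exchanged labels and 8 against the early control, and at 1 h (0) they became 5 with the table and 8 with exchanged labels. Array means gave 2 and 5 in EPM and 2 and 4 in BMDM at 1 h and 12 h. Of all genes, 897 passed in B cells at 1 h, against 1473 without normalization between arrays, 7178 with the table, 2404 with the replicate block, 8210 exchanged, 409 at 0.01, 392 in separate fits and 14 with array means. At 12 h 911 passed, against 7582, 1929, 8522, 530, 529 and 1 under the same settings after the first, and 8024 against the early control. In BMDM at 1 h 4952 became 3285 at 0.01 and 99 with array means, and array means gave 165 and 2008 in EPM at 1 h and 12 h (5043 and 9344) and 3651 in BMDM at 12 h (11259). Leaving out single samples gave, of the 10 genes, 5 to 5 and 9 to 10 in EPM, 4 to 4 and 8 to 9 in BMDM and 0 to 0 and 0 to 1 in B cells. Of all genes it gave 3422 to 4049 and 8232 to 8349 in EPM, 3372 to 3934 and 10292 to 10385 in BMDM, and 333 to 658 and 591 to 830 in B cells. The B cell counts at 1 h fell by over 1.5 times without the first untreated sample (354) or the first or second KLA sample (333 and 487), and at 12 h without the first KLA sample (591). Apart from the calls named, the replicate block changed that of Irf2 for B cells minus macrophages at 1 h (-0.28, adjusted p = 0.0108), which was 0.21 with exchanged labels.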
